A study of Mus musculus with 4 samples.

Results

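Ccl6, Ccl9, Ccl24 and Pf4 are chemokine genes that myeloid cells are known to express without a strong stimulus, and they are 4 of the 19491 genes that the expression tables list. They were chosen by name, and their rows were read in each of the 4 libraries, in which all 4 genes are listed. Leukocytes (CD45+ cells, sorted by flow cytometry) came from 2 tissues, the brain and the dura mater, the outer membrane around it. The mice were adult C57BL/6J animals, 8 weeks of age. No allele or transgene is named for them. At S3 they were on day 3 after a sham operation, which the labels give as CT, and at D3 on day 3 after photothrombotic injury (PTI), in which a light-activated dye damages the vessels under the lit area of the dura mater, the pia mater and the brain alike, and which the labels give as INJ. Each tissue and condition has 1 library of the 10x Chromium 3' v3 kit, and how many mice went into it is not given in the sources used here. No difference could therefore be set against the spread between mice. No test was made, no P value is given, and all intervals cover the counting error of unique molecular identifiers (UMIs, the tags that count single RNA molecules) only.

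Chemokines are small secreted proteins that guide leukocytes through receptors on their surface. Ccl6 and Ccl9 are mouse CC chemokines that signal through Ccr1. Ccl24, also called eotaxin-2, signals through Ccr3, the receptor by which eosinophils are drawn into tissue, and is a known product of alternatively activated macrophages. Pf4 (Cxcl4) is best known as a protein of platelet granules, and is also made by tissue macrophages at the borders of the brain. Border macrophages are the resident macrophages of the dura mater, the leptomeninges, the perivascular space and the choroid plexus. Those with Lyve1, a hyaluronan receptor, are told apart from a kind rich in major histocompatibility complex (MHC) class II.

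Ccl6 (ENSMUSG00000018927.3) and Ccl9 (ENSMUSG00000019122.8) are neighbours on the minus strand of chromosome 11, at chr11:83587882-83593087 and chr11:83572919-83578636 of GRCm38 in GENCODE vM21, with 9245 bases between them. Ccl24 (ENSMUSG00000004814.10) and Pf4 (ENSMUSG00000029373.7) are both on chromosome 5, at chr5:135569937-135573049 on the minus strand and chr5:90772435-90773383 on the plus strand. Ppbp, a second platelet chemokine gene, is 2371 bases from Pf4.

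The 250 bases before the gene start are shown for Ccl6 and Ccl9, neighbours that were both high in Ly6C hi monocytes while mature neutrophils were rich in Ccl6 alone, and for Pf4, the transcript of nearly all Lyve1+ macrophages. They come from RefSeq on GRCm38.p6, in which 3 of the 4 members were matched, at chr11:83593088-83593337 and chr11:83578637-83578886 on the minus strand and at chr5:90772185-90772434 on the plus strand. Capitals mark every match, on either strand, to 1 of 5 motifs that were searched. These were the ETS core AGGAAG, which reads CTTCCT on the opposite strand, and the C/EBP-type motif TTGCNNAA. The others were the AP-1 motif TGANTCA, the TATA motif TATAAA and the GATA motif AGATAA. N stands for any letter, so a match to TTGCNNAA need not hold a pair of C/EBP half-sites.
Ccl6: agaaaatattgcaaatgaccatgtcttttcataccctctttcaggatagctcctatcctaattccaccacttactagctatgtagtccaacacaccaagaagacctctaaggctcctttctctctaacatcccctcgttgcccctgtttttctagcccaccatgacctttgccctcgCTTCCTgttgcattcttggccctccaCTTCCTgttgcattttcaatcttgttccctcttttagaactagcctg
Ccl9: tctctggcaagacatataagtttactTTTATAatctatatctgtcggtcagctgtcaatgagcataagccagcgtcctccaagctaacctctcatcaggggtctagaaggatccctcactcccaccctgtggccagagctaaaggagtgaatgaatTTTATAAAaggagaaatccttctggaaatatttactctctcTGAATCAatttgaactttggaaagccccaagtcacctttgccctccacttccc
Pf4: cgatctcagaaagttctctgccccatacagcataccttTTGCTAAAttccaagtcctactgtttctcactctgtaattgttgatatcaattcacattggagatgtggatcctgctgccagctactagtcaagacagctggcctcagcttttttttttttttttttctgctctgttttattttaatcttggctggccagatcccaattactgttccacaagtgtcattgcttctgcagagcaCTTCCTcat

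The Ccl6 window held 2 ETS cores, 73 and 47 bases before the start, and the Pf4 window held 1, at 9 bases. The Ccl9 window held none of these, but an AP-1 motif at 53 bases and 3 TATA motifs at 224, 94 and 92 bases, the last pair overlapping on opposite strands. The Pf4 window also held TTGCTAAA at 212 bases. Among 32851 promoter windows of the same length, 29.5% held the ETS core, 9.56% TTGCNNAA, 6.75% the AP-1 motif and 12.4% the TATA motif. AGATAA was in 9.99% of them and in none of these 3. A match describes the letters of a window and was not tested as a binding site.

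After filters, 3618 cells of brain S3, 3439 of dura mater S3, 4438 of brain D3 and 2603 of dura mater D3 were kept, with median depths of 8252, 9320, 14269.5 and 14156 UMIs per cell. The cells were clustered with the 4 members and the other chemokine genes left out, and each cluster was named for its marker genes. The names stand for clusters that are like the cell type named, and "-like" is omitted. Lyve1+ macrophages, led by Cd209f, Cd163 and Lyve1, numbered 96, 303, 136 and 466 cells in the order brain S3, dura mater S3, brain D3 and dura mater D3. Lyve1- macrophages, led by MHC class II genes, numbered 221, 167, 227 and 228, and both kinds together are called border macrophages. Infiltrating macrophages, led by Arg1, Gpnmb and Spp1, were almost confined to brain D3, with 1437 cells beside 6 in brain S3, none in dura mater S3 and 21 in dura mater D3. Microglia numbered 432 and 627 in the brain libraries and 3 and 6 in those of the dura mater. Ly6C hi monocytes numbered 227 to 271 cells per library, and mature neutrophils 329, 352, 158 and 203. A cluster of 769 cells led by Cd209a held more MHC class II macrophage markers than dendritic cell markers among its leading genes, so it is called by that gene. A cluster of 476 cells carried lymphocyte markers in 53.8% of its cells, beside 1.90% in the Lyve1+ cluster, at a median depth 1.92 times that of its library. It held Lyve1+ macrophage markers too and is called the mixed cluster and kept apart. Cell barcodes that 2 libraries had in common numbered 37.

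Levels are given as UMIs of a gene per 1000000 UMIs summed over the cells of a class (CPM), with the exact Poisson 95% interval in parentheses. They are compared between classes and libraries and not between genes. Free RNA in the droplets can put a gene's UMIs into cells without its transcript, so the level in T and B cells together is set beside each member.

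**Figure D1:**
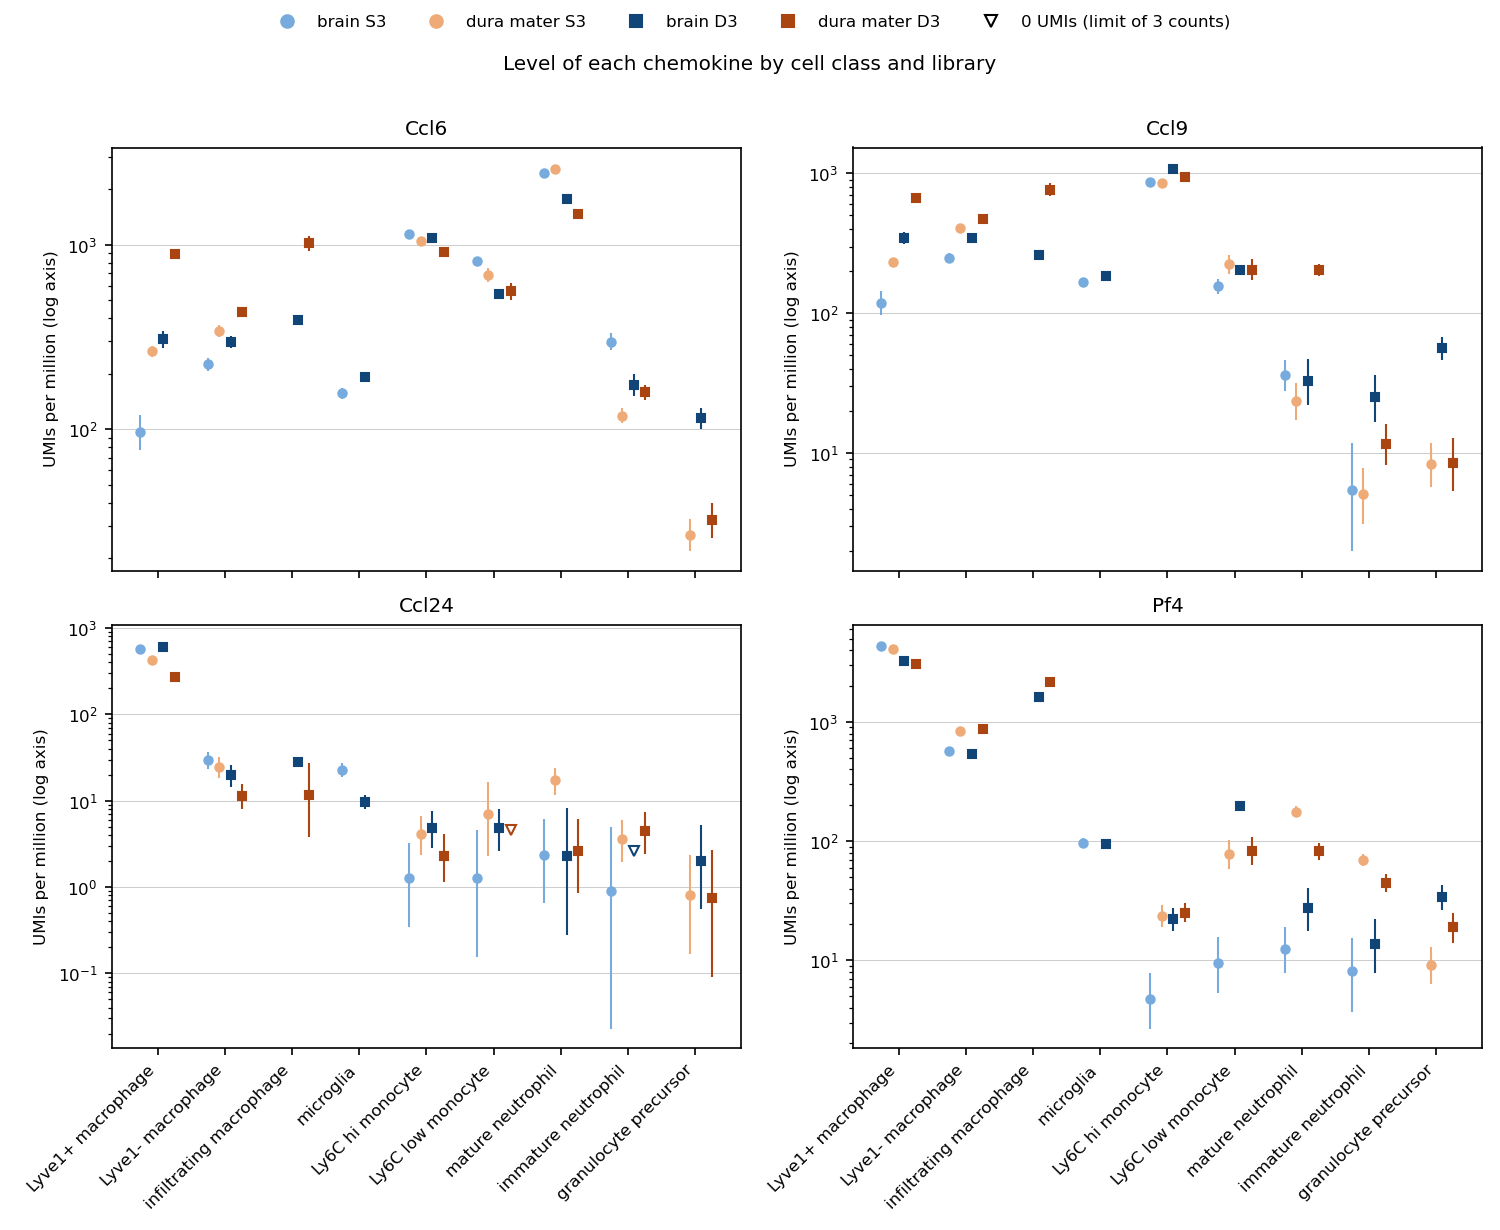
Level of Ccl6, Ccl9, Ccl24 and Pf4 (CPM, log axis) by class and library, with bars for the exact Poisson 95% interval and open triangles at the limit of 3 counts where there was no UMI. Ccl6 was highest in mature neutrophils (1463 to 2580 CPM), Ccl9 in Ly6C hi monocytes (854 to 1082 CPM), and Ccl24 and Pf4 in Lyve1+ macrophages (268 to 606 and 3082 to 4369 CPM).

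Ccl6 was highest in mature neutrophils in every library, followed by Ly6C hi and then Ly6C low monocytes in brain S3, dura mater S3 and brain D3. In mature neutrophils it was at 2458 (2383 to 2534) in brain S3, 2579.9 (2507 to 2654) in dura mater S3, 1777 (1689.8 to 1867) in brain D3 and 1463 (1409 to 1518) in dura mater D3. It was detected in 96.4, 97.2, 93.7 and 88.2% of them, at median depths of 3901 to 7703 UMIs. Ly6C hi monocytes, the classical monocytes of the blood, carried Ccl6 at 1149.8 (1113 to 1188) in brain S3, 1052 (1021 to 1085) in dura mater S3, 1093 (1059.8 to 1127) in brain D3 and 911 (885 to 939) in dura mater D3, and 99.2 to 100% of them had a UMI. Ly6C low monocytes, the patrolling kind, were at 816, 689, 539 and 560.0 CPM. The 12 mature neutrophil markers, none at 0, summed to 64651 to 96238 CPM in Ly6C low monocytes, 3825 to 12176 in Ly6C hi monocytes and 238618 to 281210.0 in mature neutrophils, and their part in the Ccl6 level was not tested. Immature neutrophils, led by granule genes such as Ltf and Camp, had far less, at 299, 119, 174 and 158 CPM. Granulocyte precursors were at 26.7 and 32.2 CPM in the dura mater at S3 and D3, and at 114.8 (100.3 to 130.7) in brain D3. Every macrophage class of at least 50 cells was lower than both kinds of monocyte in its library, except the Lyve1+ macrophages of dura mater D3. Ccl6 in Lyve1+ macrophages was at 96.5 (77.3 to 119) in brain S3, 264 (247 to 282) in dura mater S3, 308 (277 to 342) in brain D3 and 894 (872 to 917) in dura mater D3. Lyve1- macrophages lay between 225 and 431 CPM, microglia at 157 and 191 and infiltrating macrophages of brain D3 at 393 (386 to 399.8). T and B cells were at 7.84, 7.37, 10.4 and 15.5 CPM, with a UMI in 4.26 to 9.78% of cells at median depths of 5169 to 5866 UMIs. In dura mater D3 the intervals of Ly6C hi monocytes and Lyve1+ macrophages overlapped, and in brain D3 those of Lyve1+ macrophages, the Cd209a-led cluster and Lyve1- macrophages did.

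Ccl9 was highest in Ly6C hi monocytes in all 4 libraries. They carried it at 869 (837 to 902) in brain S3, 854 (826 to 884) in dura mater S3, 1082 (1049 to 1116) in brain D3 and 945 (917 to 973) in dura mater D3, with a UMI in 97.4 to 99.6% of cells. The Cd209a-led cluster came next in 3 libraries, at 518, 569, 512 and 591 CPM. In dura mater D3 the next class was the Lyve1+ macrophages. These macrophages were at 119 (97.2 to 143) in brain S3, 233 (217 to 249) in dura mater S3, 347 (314 to 382) in brain D3 and 668 (649 to 687) in dura mater D3. Lyve1- macrophages were at 249.98, 404, 343 and 474 CPM, infiltrating macrophages of brain D3 at 262 (256 to 267) and Ly6C low monocytes at 156, 225, 202 and 205. Mature neutrophils, the cells richest in Ccl6, had Ccl9 at only 36.3 (27.8 to 46.6) in brain S3, 23.6 (17.2 to 31.7) in dura mater S3, 33.0 (22.1 to 47.3) in brain D3 and 203 (183 to 225) in dura mater D3. A UMI of Ccl9 was found in 7.60, 7.39, 7.59 and 20.2% of them. T and B cells had Ccl9 at 2.89, 9.93, 18.4 and 9.82 CPM, with a UMI in 1.85 to 8.25% of cells. In brain D3 the interval of T and B cells, 11.6 to 27.6 CPM, overlapped that of mature neutrophils.

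Ccl24 had its highest level in Lyve1+ macrophages in all 4 libraries, among classes of at least 50 cells. In them it was at 580.0 (531 to 632) in brain S3, 428 (407 to 451) in dura mater S3, 606 (562 to 652) in brain D3 and 268 (256 to 281) in dura mater D3, and 81.2, 72.9, 77.9 and 60.7% of cells had a UMI at median depths of 8866, 11368, 7489 and 15032.5 UMIs. Dura mater D3 was the lowest of these 4 libraries although its cells were the deepest. With each cell thinned to 2000 UMIs the shares were 52.8, 42.2, 51.2 and 28.7%. The 10% of cells with the most Ccl24 UMIs held 43.6 to 56.6% of the transcript. Lyve1- macrophages had 29.7, 24.7, 19.6 and 11.3 CPM and infiltrating macrophages of brain D3 28.3 (26.5 to 30.2). In both of these classes the UMIs sat in few cells. A UMI was found in 3.96 to 7.78% of Lyve1- and 11.2% of infiltrating macrophages, and in the latter the top 10% of cells held 98.2% of the UMIs. Microglia had 23.0 CPM at S3 and 9.73 at D3. Ly6C hi monocytes were at 1.27 to 4.83 CPM, in the range of the 0.798 to 6.54 CPM of T and B cells. Mature neutrophils were at 2.27 to 2.64 CPM outside dura mater S3, where they had 17.2 (11.8 to 24.3) beside 4.49 in T and B cells and 11.1 (5.09 to 21.2) in T cells alone.

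Pf4 was present in nearly every Lyve1+ macrophage. It was at 4369 (4234 to 4508) in brain S3, 4077 (4010.2 to 4144) in dura mater S3, 3237 (3135 to 3342) in brain D3 and 3082 (3041 to 3124) in dura mater D3, with a UMI in 98.96 to 100% of cells and, thinned to 2000 UMIs, in 96.5 to 98.2%. Infiltrating macrophages of brain D3 carried 1608 (1594 to 1621), and 83.8% of them had a UMI. Lyve1- macrophages were at 569, 839, 541 and 866 CPM. In them 65.6 to 74.6% of cells had a UMI, and the top 10% of cells held 45.9 to 48.9% of UMIs, beside 22.6 to 25.2% in Lyve1+ macrophages. Microglia had 97.0 and 94.2 CPM, with 98.6 and 83.8% of UMIs in the top 10% of cells. Ly6C hi monocytes had 4.75 CPM in brain S3 and 22.3 to 25.1 elsewhere, beside 9.77, 64.4, 29.5 and 82.6 in T and B cells. Mature neutrophils of dura mater S3 were at 177 (159 to 197), an interval that overlaps the 163 (137 to 194) of T cells, and B cells were at 29.8. Of those T cells 39.1% had a UMI of Pf4 at a median depth of 7888, and of the neutrophils 17.9% at 4962. Pf4 of dura mater neutrophils was therefore not read as expression. The level in T cells differed from that in B cells, so no single background level holds for the dura mater.

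Pf4 is also a platelet gene, so 14 platelet and megakaryocyte genes were counted in the same cells, among them Ppbp, Gp9 and Itga2b. Lyve1+ macrophages held 3940, 14250, 3782 and 21255 UMIs of Pf4 beside 2, 14, 5 and 16 of Ppbp. Of the 14 genes, 11, 7, 11 and 5 were at 0, and their summed level was 5.54 to 8.30 CPM. Infiltrating macrophages of brain D3 held 52804 UMIs of Pf4 and 152 of Ppbp, with a platelet sum of 7.22 CPM. The platelet genes were thus at or near 0 in both classes with the most Pf4.

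The classes that held most of a transcript differed between tissues and conditions, as did the sizes of the classes and their levels. In brain D3, infiltrating macrophages were 32.4% of cells and held 85.4% of all Pf4 UMIs, 48.6% of Ccl6, 44.7% of Ccl24 and 41.1% of Ccl9. Lyve1+ macrophages were 3.06% of cells there and held 34.1% of Ccl24 and 6.12% of Pf4. In the dura mater, Lyve1+ macrophages held 58.9% of Pf4 and 60.4% of Ccl24 at S3, and 64.9% and 75.4% at D3, while their share of cells was 8.81 and 17.9%. Ccl6 at S3 was held mainly by mature neutrophils (31.1% in the brain and 32.2% in the dura mater) and Ly6C hi monocytes (27.3 and 27.8%). In dura mater D3 the share of mature neutrophils was 13.7% and that of Lyve1+ macrophages 30.4%, against 6.18% at S3. The largest part of Ccl9 at S3 was in Ly6C hi monocytes (38.8, 37.6% in brain and dura mater), followed by the Cd209a-led cluster (19.1 and 20.8%). In brain D3 these held 19.3 and 13.5%, after infiltrating macrophages. In dura mater D3 Lyve1+ macrophages held 28.8% of Ccl9, Ly6C hi monocytes 28.2%, Lyve1- macrophages 9.96% and the Cd209a-led cluster 8.95%. In brain S3 the mixed cluster, 3.43% of cells, held as large a part of Pf4 as the Lyve1+ macrophages, 37.6% beside 37.6%, and 36.1% of Ccl24.

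**Figure D2:**
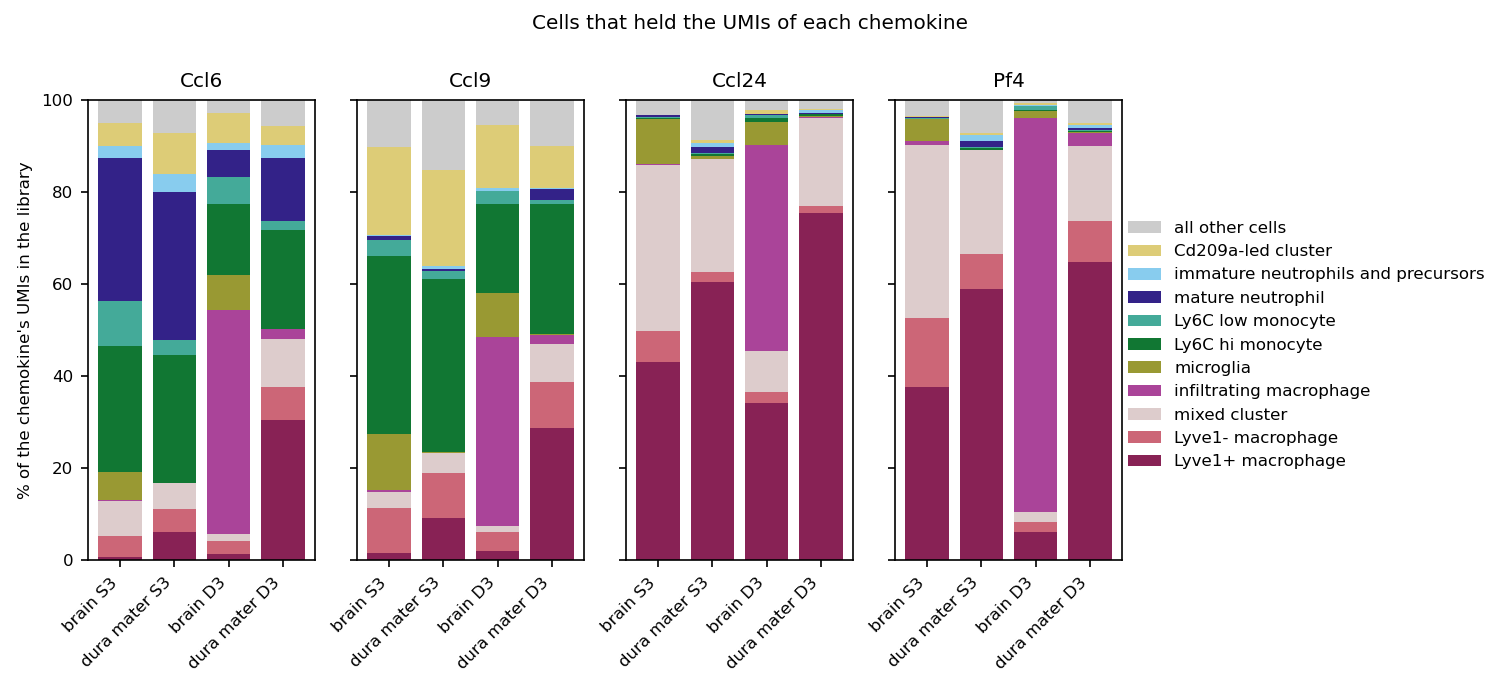
Share of each member's UMIs held by each class (percent, stacked bars) in the 4 libraries, over all kept cells. In brain D3 infiltrating macrophages hold 85.4% of Pf4 and 48.6% of Ccl6, and in the dura mater Lyve1+ macrophages hold 60.4% of Ccl24 at S3 and 75.4% at D3.

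Lyve1+ and Lyve1- macrophages were compared within each library to describe how the border macrophages differ among themselves. A ratio was called when it was 2-fold or more in either direction and the pair of groups held at least 100 UMIs of the gene. Ratios under that minimum count as not called. Ccl24 and Pf4 were higher in Lyve1+ macrophages in all 4 libraries, and Ccl6 and Ccl9 went from lower at S3 to about equal or higher at D3. For Ccl24 the log2 ratios of Lyve1+ over Lyve1- macrophages were 4.29 (3.95 to 4.64) in brain S3, 4.12 (3.72 to 4.53) in dura mater S3, 4.95 (4.53 to 5.39) in brain D3 and 4.57 (4.11 to 5.07) in dura mater D3, which is 19.5, 17.3, 30.9 and 23.7-fold. For Pf4 they were 2.94 (2.86 to 3.03), 2.28 (2.21 to 2.35), 2.58 (2.49 to 2.67) and 1.83 (1.78 to 1.89). For Ccl6 they were -1.22 (-1.56 to -0.89), -0.36 (-0.51 to -0.22), 0.06 (-0.13 to 0.24) and 1.05 (0.97 to 1.14), and for Ccl9 -1.08 (-1.38 to -0.78), -0.80 (-0.94 to -0.66), 0.01 (-0.16 to 0.19) and 0.49 (0.41 to 0.58). Of these 16 ratios 11 were called. Of all genes that met the minimum, 20.8% were called in brain S3 and 17.9% in brain D3, 13% in dura mater S3 and 10.6% in dura mater D3. The lower Ccl6 in Lyve1+ macrophages of brain S3 turned to a log2 ratio of 0.47 when the mixed cluster was counted with them, so its direction rests on which cells are named Lyve1+.

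Border macrophages, both kinds together, were set against Ly6C hi monocytes. Ccl24 and Pf4 were higher in border macrophages, and Ccl6 and Ccl9 were lower, in all 4 libraries. The log2 ratios for Pf4 were 8.31 (7.58 to 9.15), 6.90 (6.61 to 7.21), 5.96 (5.65 to 6.29) and 6.55 (6.30 to 6.82) in brain S3, dura mater S3, brain D3 and dura mater D3, and for Ccl24 7.03 (5.66 to 8.91), 6.07 (5.37 to 6.88), 5.40 (4.73 to 6.16) and 6.32 (5.48 to 7.33). In the monocytes Pf4 was below its level in T and B cells in all 4 libraries, and Ccl24 rested on 4 to 18 UMIs per library. For Ccl6 the log2 ratios were -2.57 (-2.69 to -2.46), -1.84 (-1.93 to -1.76), -1.86 (-1.96 to -1.77) and -0.30 (-0.35 to -0.24), and for Ccl9 -2.00 (-2.11 to -1.88), -1.52 (-1.60 to -1.43), -1.65 (-1.74 to -1.56) and -0.64 (-0.70 to -0.59). In dura mater D3 neither gene was called. Of 16 ratios 14 were called, beside 21.4, 24.3, 19.7 and 25.6% of all genes tested in the same order. With cells gated one by one on markers in place of clusters, 8 were called, and part of the Ccl6 and Ccl9 ratios changed sign.

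Mature neutrophils and Ly6C hi monocytes differed most in Ccl9. Its log2 ratios of neutrophils over monocytes were -4.58 (-4.97 to -4.21), -5.18 (-5.64 to -4.75), -5.04 (-5.62 to -4.51) and -2.22 (-2.37 to -2.07), while those of Ccl6 were 1.10 (1.03 to 1.16), 1.29 (1.23 to 1.35), 0.70 (0.62 to 0.79) and 0.68 (0.61 to 0.75). Ccl6 and Ccl9 thus lay on opposite sides of 0 in each library. Pf4 had enough UMIs in 3 libraries, with ratios of 2.91 (2.57 to 3.25) in dura mater S3, 0.29 (-0.43 to 0.96) in brain D3 and 1.71 (1.35 to 2.06) in dura mater D3. The ratio in dura mater S3 was -0.48 once neutrophils with a UMI of a monocyte or macrophage marker were left out. Only 8 Pf4 UMIs of neutrophils then remained. Ccl24 was under the minimum in every library. Of 16 ratios 8 were called, with those under the minimum counted as not called. The 8 include Pf4 of the dura mater at S3 and D3, which was not read as expression in neutrophils. Of all genes that met the minimum, 51.2, 55.2, 53.6 and 40.4% were called. These shares leave out genes under the minimum, while the 16 ratios include Ccl24 in every library and Pf4 in brain S3. The count of 8 of 16 is therefore not on the same base as the shares.

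Infiltrating macrophages of brain D3 lay between the 2 kinds of border macrophage of the same library in Pf4 and Ccl24. Pf4 was at 1608 CPM in them, 3237 in Lyve1+ and 541 in Lyve1- macrophages, and Ccl24 at 28.3, 606 and 19.6. Against both kinds pooled, in which 136 cells were Lyve1+ and 227 Lyve1-, Pf4 was at 1608 beside 1389.5 CPM, a log2 ratio of 0.21 (0.17 to 0.25). The ratios were 0.39 (0.30 to 0.48) for Ccl6 and -0.40 (-0.48 to -0.31) for Ccl9. Ccl24 was lower against the pool, at 28.3 beside 204 CPM, a ratio of -2.85 (-2.99 to -2.71), and that direction holds for the Lyve1+ kind and not for the Lyve1- kind. It was the 1 of 4 members called, beside 16.7% of all genes tested. Against Ly6C hi monocytes of the same library, infiltrating macrophages had Pf4 at a log2 ratio of 6.17 (5.86 to 6.50) and Ccl24 at 2.55 (1.88 to 3.31), while Ccl6 was at -1.48 (-1.53 to -1.42) and Ccl9 at -2.05 (-2.10 to -1.99). All 4 were called, beside 19.8% of all genes tested. With single-cell gates 2 were called, and the ratio of Ccl6 was 0.41. The median depth was 21459 UMIs in infiltrating macrophages, 9270.0 in border macrophages and 14005 in monocytes.

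D3 was compared with S3 within each class and tissue, to see whether injury was accompanied by other levels of these chemokines in cells of the same name. Lyve1+ macrophages had more Ccl6 and Ccl9 at D3 in both tissues, while their Ccl24 and Pf4 differed by less than 2-fold. For Ccl6 of the brain this depended on which cells were named Lyve1+. In the dura mater Ccl6 was at 264 CPM at S3 and 894 at D3, a log2 ratio of 1.76 (1.66 to 1.86), and Ccl9 at 233 and 668, a ratio of 1.52 (1.41 to 1.63). In the brain Ccl6 was at 96.5 and 308 CPM, a ratio of 1.68 (1.33 to 2.03), and Ccl9 at 119 and 347, a ratio of 1.55 (1.24 to 1.87). The ratios of Ccl24 were 0.06 (-0.10 to 0.23) in the brain and -0.67 (-0.77 to -0.58) in the dura mater, and those of Pf4 -0.43 (-0.50 to -0.37) and -0.40 (-0.43 to -0.37). Of all genes tested in this class, 1.54% were called in the brain and 1.02% in the dura mater.

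Thinned to 2000 UMIs, the share of Lyve1+ macrophages with a Ccl6 UMI was 30.6% at S3 and 51.9% at D3 in the dura mater, and 12.6% and 21.3% in the brain. For Ccl9 it was 27.6 and 53.7% in the dura mater and 17.2 and 32.4% in the brain. The share with a UMI rises with the level, so it cannot tell more cells with a transcript from more transcript per cell. In the brain D3 library the top 10% of the 136 cells held 78.6% of Ccl6, and 1 cell had 128 of the 360 UMIs.

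Markers of other classes were counted in the same Lyve1+ cells, since monocytes are rich in Ccl6 and Ccl9. The 11 Ly6C hi monocyte markers, none of them at 0, summed to 1221 CPM in Lyve1+ macrophages of brain S3 and 1507 of brain D3, and to 1521 and 1884 in the dura mater. They were thus higher at D3 in both tissues, by less than 1.5 times. F13a1 is in the monocyte list and in that of the Lyve1+ class, so these sums are not of monocyte genes alone. Fn1 is in the lists of monocytes and of infiltrating macrophages. In library order, the 12 infiltrating macrophage markers summed to 1924, 1654, 2385 and 2134, with 2, 1, 0 and 0 of them at 0, and the 12 mature neutrophil markers, none at 0, to 985, 2139, 1177 and 1247. The 12 markers of the Lyve1+ class itself summed to 10665 to 11510.4 CPM. Without the Lyve1+ cells that carried Ly6c2, Plac8, Chil3, Vcan, Arg1 or Gpnmb, 81, 194, 89 and 327 cells were kept, with Ccl6 at 98.96, 255, 203 and 886 CPM and Ccl9 at 128, 222, 334 and 679.6. In the dura mater the log2 ratios of D3 over S3 were then 1.80 for Ccl6 and 1.61 for Ccl9, beside 1.76 and 1.52 with all cells. In the brain they were 1.04 and 1.38, beside 1.68 and 1.55. Whether a cell shows such a marker depends on its depth, and the part of RNA from other cells in these ratios was not tested.

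The dura mater ratios kept their sign and stayed past 2-fold under all 11 alternatives, 3 of them chosen after the data were seen, from 1.13 to 1.91 for Ccl6 and from 1.02 to 1.61 for Ccl9. In the brain Ccl9 was between 0.75 and 1.58. The brain ratio of Ccl6 depended on which cells were called Lyve1+ macrophages. It was 0.02 with the mixed cluster counted in, 0.11 at clustering resolution 0.3, and -0.57 and -0.14 with 2 kinds of single-cell gate. The mixed cluster carried Ccl6 at 384 CPM in brain S3 and 320 in brain D3, beside 96.5 and 308 in Lyve1+ macrophages, and in brain S3 it had more cells than they did, 124 beside 96. A higher Ccl6 at D3 in Lyve1+ macrophages of the brain was thus not a stable result.

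**Figure D3:**
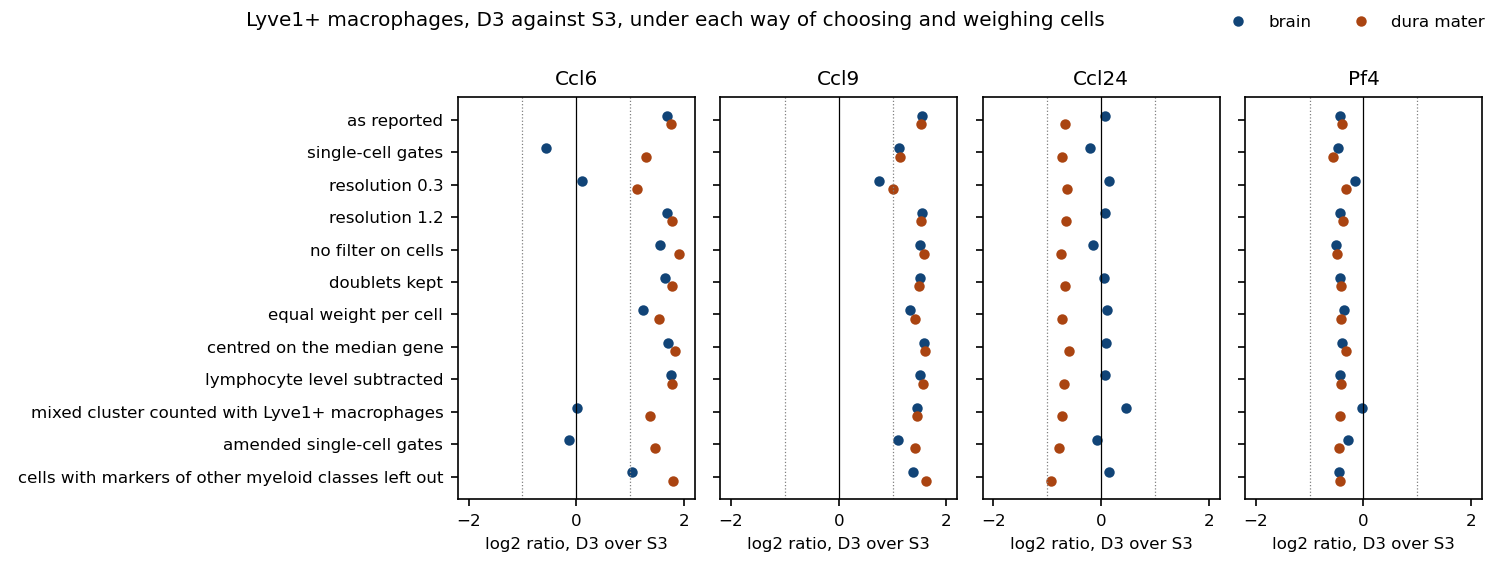
Log2 ratio of D3 over S3 in Lyve1+ macrophages for each member and tissue under the main setting and the alternatives, with dotted lines at 2-fold. Ccl6 of the dura mater stays between 1.13 and 1.91, while Ccl6 of the brain ranges from -0.57 to 1.75.

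In Lyve1- macrophages Ccl6, Ccl9 and Pf4 differed by less than 2-fold between D3 and S3. The log2 ratios were 0.40 (0.25 to 0.56) for Ccl6 and 0.46 (0.31 to 0.60) for Ccl9 in the brain, and 0.34 (0.21 to 0.47) and 0.23 (0.11 to 0.35) in the dura mater, where 1.15% and 0.572% of all genes tested were called. Pf4 was at -0.07 (-0.18 to 0.03) and 0.05 (-0.04 to 0.13). Ccl24 was lower, at -0.60 (-1.13 to -0.07) in the brain and, on fewer UMIs than the minimum, -1.13 (-1.77 to -0.50) in the dura mater. Whether the 2 kinds of border macrophage differ in their ratio was not tested, since each has 1 library per condition. In microglia of the brain Ccl24 was lower at D3, at 23.0 and 9.73 CPM, a ratio of -1.24 (-1.63 to -0.85), while Ccl6, Ccl9 and Pf4 had ratios of 0.28, 0.17 and -0.04. The background in microglia was 6.57%. From S3 to D3 the 11 microglia markers in these cells went from 23138 to 15624 CPM, the 12 infiltrating macrophage markers from 2604 to 8504 and the 12 mature neutrophil markers from 1942 to 4328, with none at 0, and their part in the result was not tested.

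Ccl6 was lower at D3 in Ly6C hi monocytes and mature neutrophils of both tissues, by less than 2-fold. In Ly6C hi monocytes the ratios of Ccl6 were -0.07 (-0.14 to -0.01) in the brain and -0.21 (-0.27 to -0.15) in the dura mater, and those of Ccl9 0.32 (0.25 to 0.39) and 0.15 (0.08 to 0.21), with 4.89% and 2.06% of all genes called. In Ly6C low monocytes Ccl6 was at -0.60 (-0.71 to -0.49) and -0.30 (-0.50 to -0.10), with a background of 3.04% and 1.93%. That class is made of 2 clusters, of 63 and 65 cells in brain S3 and 196 and 75 in brain D3. In the first of them Ccl6 at D3 and S3 had overlapping intervals, at 593 (556 to 632) beside 535 (472 to 604) CPM in the brain and 618 (531 to 715) beside 557 (485 to 636) in the dura mater. In the second it was lower in the brain, at 472 (436 to 511) beside 941 (884 to 1000.2). The 12 mature neutrophil markers in the class went from 85787 to 64651 CPM in the brain and from 67966 to 96238 in the dura mater, and their part in the result was not tested. Pf4 of Ly6C low monocytes in the brain was at 9.48 CPM at S3 and 196 at D3 and was called at 4.37 (3.64 to 5.22). The top 10% of the 271 cells of D3 held 97.2% of its 570 UMIs and 1 cell held 150. The 12 Lyve1+ macrophage markers summed to 71.4 and 159 CPM in these monocytes, with 3 and 2 at 0. The 13 Lyve1- macrophage markers went from 8661 to 17613 CPM, and the 12 infiltrating macrophage markers from 3079 to 3745. Their part in the Pf4 result was not tested. With doublets kept the ratio of Pf4 was -0.71, but the class then held other cells. The deeper of its clusters had 454 cells in place of 177, and the part of this in the ratio was not tested. In mature neutrophils Ccl6 was at -0.47 (-0.55 to -0.38) in the brain and -0.82 (-0.89 to -0.75) in the dura mater, with a background of 5.27% and 15%. In immature neutrophils it was at -0.78 (-1.04 to -0.52) in the brain and 0.42 (0.23 to 0.60) in the dura mater, with a background of 3.99% and 1.66%.

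Mature neutrophils of the dura mater had Ccl9 at 23.6 CPM at S3 and 203 at D3, a log2 ratio of 3.105 (2.65 to 3.59). The top 10% of the 203 cells of D3 held 94.0% of the 385 UMIs, and 41 cells had a UMI. The 11 Ly6C hi monocyte markers, 0 and 1 of them at 0, summed to 4639 CPM in mature neutrophils of dura mater S3 and 4958 of dura mater D3. Their part in the result was not tested. Thinned, Ccl9 was detected in 6.54% of those with a Ccl6 UMI and in 20.5% of those without. Without the cells that carried Ly6c2, Vcan, C1qa, Mrc1 or Arg1, 111 cells of S3 and 44 of D3 remained, with Ccl9 at 14.8 and 249.8 CPM, from 7 and 70 UMIs. Over the 13 pairs of class and tissue, 8 of 52 ratios of D3 over S3 were called, with ratios under the minimum counted as not called. Of all genes tested, which leaves out those under the minimum, 0.572 to 15% were called in these pairs. Pf4 of mature neutrophils in the dura mater was among the 8, at -1.11 (-1.40 to -0.84). Without the same cells the ratio was 0.92, on 8 Pf4 UMIs at S3 and 9 at D3, under the minimum. The levels then had overlapping intervals, at 16.9 (7.30 to 33.3) and 32.1 (14.7 to 61.0) CPM, so no reversal was read from it.

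**Figure D4:**
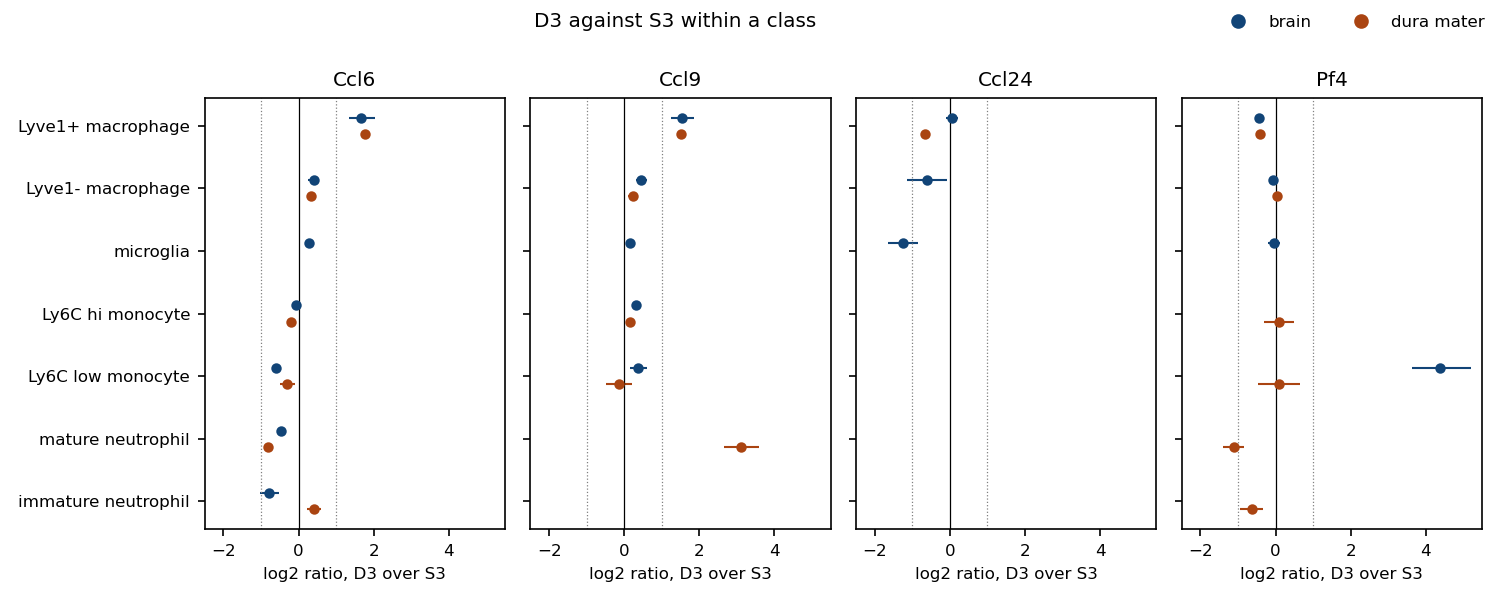
Log2 ratio of D3 over S3 for each member, class and tissue, with bars for the exact 95% interval of counting error and dotted lines at 2-fold. Pairs under 100 UMIs are not drawn. Ccl6 and Ccl9 of Lyve1+ macrophages lie between 1.52 and 1.76 in both tissues, and Ccl9 of mature neutrophils in the dura mater at 3.105.

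At S3 the dura mater and the brain were compared within 5 classes. In Lyve1+ macrophages Ccl6 was at 264 CPM in the dura mater and 96.5 in the brain, a log2 ratio of 1.45 (1.13 to 1.79), Ccl9 at 0.97 (0.68 to 1.28), Ccl24 at -0.44 (-0.58 to -0.29) and Pf4 at -0.10 (-0.15 to -0.05), with 6.5% of all genes called. With the mixed cluster counted in, the Ccl6 ratio was -0.09. Lyve1- macrophages had ratios of 0.60, 0.69, -0.27 and 0.56 in the same order, beside 2.37% of genes called. In Ly6C hi monocytes Ccl6 and Ccl9 were nearly equal between tissues, at -0.13 (-0.19 to -0.06) and -0.02 (-0.10 to 0.05), and 1.33% of genes were called. Ccl6 of mature neutrophils was at 0.07 (0.01 to 0.13), beside 3.83% of genes, and that of immature neutrophils at -1.33 (-1.54 to -1.13), beside 3.28%. Pf4 was higher in the dura mater in 3 classes. The log2 ratios were 2.31 (1.52 to 3.21) in Ly6C hi monocytes and 3.83 (3.19 to 4.54) in mature neutrophils, the latter at 177 beside 12.5 CPM. In immature neutrophils the difference was smaller than in mature ones, 8.57-fold without the log, at 69.5 (61.5 to 78.2) beside 8.10 (3.71 to 15.4) CPM. T cells differed in the same direction, from 12.8 CPM in the brain to 163 in the dura mater, and the part of free RNA in these 3 ratios was not tested. Of 20 ratios 5 were called, with ratios under the minimum counted as not called.

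Within a class, Ccl6 and Ccl9 tended to be found in the same cells of macrophages. The shares are after thinning to 2000 UMIs and are a description, since cells of 1 library are not replicates. Among infiltrating macrophages of brain D3, 48.5% of the cells with a Ccl6 UMI had one of Ccl9, beside 15.5% of those without. For dura mater Lyve1+ macrophages the shares were 38.5% and 22.8% at S3 and 65.3% and 41.2% at D3. Ly6C hi monocytes, nearly all of which have both transcripts, gave 78.5% and 72.4% in brain S3 and 79.7% and 76.5% in dura mater D3. In Lyve1- macrophages the few cells with Ccl24 mostly had Pf4. In brain S3 these were 81.5% of cells with Ccl24 and 40.4% of those without, in dura mater S3 76.99% and 46.6%, and in infiltrating macrophages of brain D3 84.5% and 56.5%. In brain S3 Pf4 was found in fewer of the Lyve1- macrophages with Ccl9 than of those without, 27.1% and 47.1%.

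Across 59 groups of class and library, the log2 levels of Ccl24 and Pf4 had a Pearson correlation of 0.89 and those of Ccl6 and Ccl9 of 0.76, while the other 4 pairs lay between 0.24 and 0.39. Among 10446 genes, those most like Ccl6 were Nlrp3 (0.93), 1600010M07Rik, Cd300a, Il1b and Ifitm2, and those most like Ccl9 were Cd302 (0.93), Ms4a6c, Ifi207, Ptpro and Gm46224. Igf1 (0.90), Trpv4, Pf4, Gm4951 and Stab1 were most like Ccl24, and Ms4a7 (0.92), Igf1, Gas6, Cbr2 and Stab1 most like Pf4. The groups share libraries, depth and free RNA, so these values describe the table only. Gas6, Cbr2 and Stab1 are also among the markers by which Lyve1+ macrophages were named.

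The receptors of these chemokines were read in the same cells. Ccr1, the receptor of Ccl6 and Ccl9, was highest in mature neutrophils, at 979, 756, 758 and 494 CPM. Ly6C hi monocytes had 116, 127, 337 and 232, Lyve1+ macrophages 298, 94.98, 352 and 165, and T cells 1.24 to 10.6. Ccr3, the receptor of Ccl24, was at 6.19 CPM or less in every class with at least 20 cells in a library. No cluster was named for eosinophils. Cxcr3, a reported receptor of Pf4, was at 84.0, 115, 175 and 180.4 CPM in T cells and at 58.8, 24.3, 46.2 and 17.0 in Lyve1+ macrophages, the class with the most Pf4. Mature neutrophils had 1.07 to 4.17 CPM of it.

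The other chemokine genes, a list of 33 of which 28 are listed in the tables, followed the members in part. In border macrophages over Ly6C hi monocytes, 12 of 13 tested were called higher in brain S3 and 11 of 13 in brain D3, 11 of 12 in dura mater S3 and 11 of 13 in dura mater D3. In library order 0, 1, 1 and 0 were called lower, with medians of 2.90, 4.15, 2.84 and 3.40 on the log2 scale beside -0.07, 0.11, -0.05 and 0.13 over all genes tested. Ccl6 and Ccl9 thus stood on the other side from most chemokines in this comparison. In Lyve1+ over Lyve1- macrophages the list had no common direction. In library order 5 were called higher and 6 lower of 12, 4 and 4 of 12, 4 and 5 of 11, and 3 and 3 of 12, with medians of -1.34, 0.03, -0.95 and -0.39 beside 0.27, 0.25, 0.20 and 0.18 over all genes tested. Ccl8, an attractant of monocytes and lymphocytes, was higher in Lyve1+ than Lyve1- macrophages in all 4 libraries, as Ccl24 was, with log2 ratios of 4.53, 5.91, 3.58 and 4.61. In infiltrating over border macrophages 5 of 16 were called higher and 7 lower, beside 718 higher and 875 lower of all 9544 genes tested, the 16.7% given above. Ccl8 (-4.51) and Ccl12 (-3.47) were lower, as Ccl24 was, and Ccl2, Ccl3, Ccl4 and Ccl7 were lower by ratios of -2.13 to -2.59, while the neutrophil attractant Cxcl3 was higher at 3.26. In Lyve1+ macrophages at D3 over S3, 3 of 10 were called higher and none lower in the brain, and 3 of 12 higher and 1 lower in the dura mater, beside the 1.54% and 1.02% of all genes called. Among them Cxcl10, an interferon-induced chemokine, was at 3.65 in the brain and Cxcl1 at 2.10 in the dura mater. Cxcl10 of that class had 16 UMIs in brain S3.

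Genes of alternatively activated macrophages, a list of 14, were set beside Ccl24. Of those tested in Lyve1+ over Lyve1- macrophages, 5 of 9 were called higher and 2 lower in brain S3, 6 and 2 of 9 in brain D3, 6 and 0 of 10 in dura mater S3 and 7 and 4 of 12 in dura mater D3, in library order with medians of 1.30, 1.69, 1.80 and 1.18 beside 0.27, 0.25, 0.20 and 0.18 over all genes. In infiltrating over border macrophages of brain D3, 4 of 11 were called higher and 6 lower, with a median of -2.01 beside -0.03, and Ccl24 was on the lower side. At D3 over S3 in Lyve1+ macrophages 1 of 7 was called higher in the brain and 1 of 10 lower in the dura mater, with medians of 0.00 and 0.10. Some of the list's genes are markers of Lyve1+ or infiltrating macrophages themselves, so these counts are not independent of how the classes were named.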

How the data were processed

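Single CD45+ cells of brain and dura mater were measured in 4 libraries, 1 per tissue and condition. According to the submitters' processing notes, the authors used Cell Ranger 3.1.0 and Seurat 3.1.0 with mm10. The deposited values are natural log values, ln(1 + UMIs per 10000) of each cell, and the whole UMI counts behind them were recovered to within 9.82e-11 of a whole number. Kept cells had 1000 to 6000 genes and no more than 7% of UMIs from mitochondrial genes. The automatic doublet threshold of Scrublet marked 0.0284 to 0.167% of barcodes, so the barcodes with the highest scores were removed, 0.8% per 1000 barcodes, which came to 2.82 to 4.74% of a library. Clustering (Seurat 5.3.0, R 4.3.3) used 2500 variable genes, 30 principal components and resolution 0.6, with chemokine genes left out.

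UMIs were summed per class and library in Python 3.11.15 with scipy 1.17.1. Intervals are exact Poisson for levels and conditional binomial for ratios, at 95%. With 1 library per group no test is possible. The values had been planned for deposited counts, and the recovered counts were used in their place. The members, gene lists and named genes were chosen with earlier results of these data known. Named genes are the members, the 5 genes most like each by Pearson correlation of log2(CPM + 1), their receptors, and other chemokines at 4-fold or more with 200 UMIs. Levels are shown for classes of at least 20 cells. The alternatives were other gates, resolutions, filters, doublet handling, weights, centring and background subtraction, and 3 more were chosen after seeing the data. Positions are from GENCODE vM21 and promoters from RefSeq, both on GRCm38. Steps were tested on simulated counts.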

Additional observations from a re-analysis of the deposited data

Results flagged for a closer look

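Ccl6 of immature neutrophils went in opposite directions after injury in the 2 tissues. In the brain it was lower at D3 than at S3, at 174 beside 299 CPM, a log2 ratio of -0.78, and in the dura mater it was higher, at 158 beside 119 CPM, a ratio of 0.42. Both differences are under 2-fold, and each group is 1 library. The difference between the tissues was not tested.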

How the results depend on the processing

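Of the 7 counts of members past 2-fold, 5 stayed within 1.5 times under every alternative that could be computed. Cells gated one by one on marker genes changed the other 2. Border macrophages over Ly6C hi monocytes had 14 of 16 ratios called by clusters, 8 by the single-cell gates and 9 by gates amended after seeing the data, and infiltrating macrophages over Ly6C hi monocytes had 4 of 4, 2 and 2. A count can stay the same while the ratios in it change. With the single-cell gates 33 of 48 called ratios stayed past 2-fold, 9 fell under it in the same direction and 6 changed sign. Of the 60 ratios not called, 15 came past 2-fold. Levels by these gates were within 1.5 times of those by clusters in 11 of 19 groups for Ccl6, 8 for Ccl9, 7 for Ccl24 and 12 for Pf4. The first microglia gate had taken in 864 of 1464 infiltrating and 534 of 1001 Lyve1+ macrophages, and the Ly6C hi gate 494 immature neutrophils.

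Several single ratios changed sign. With the single-cell gates these were Ccl9 (0.24, dura mater S3; 0.13, brain D3) and Ccl6 (0.21, brain D3) of border macrophages over monocytes, Ccl6 of infiltrating macrophages over monocytes (0.41), and Ccl6 of Lyve1+ macrophages for D3 over S3 in the brain (-0.57) and for dura mater over brain (-0.14). With the amended gates the last pair were -0.14 and -0.050, and Ccl6 of Lyve1+ over Lyve1- macrophages in brain S3 was 0.28. With the mixed cluster counted in, that ratio was 0.47 and Ccl6 of dura mater over brain -0.085. Pf4 of D3 over S3 in Ly6C low monocytes of the brain was -0.71 with doublets kept, and Pf4 of dura mater over brain in immature neutrophils was -0.40 with no filter on cells. In both settings the class held other cells than in the main one. With no filter, a cluster of 627 cells with 2 Ly6C low monocyte markers among its leading genes was also named immature neutrophils. Without cells that carried markers of other classes, Pf4 of mature neutrophils over monocytes in dura mater S3 was -0.48 and its D3 over S3 in the dura mater 0.92. Both rest on few Pf4 UMIs of neutrophils, 8 at S3 and 9 at D3. The cause was not tested.

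The gates hold no Ly6C low monocytes or immature neutrophils, and resolution 0.3 no separate Lyve1- class, so those values were not computed. No paired analysis was possible because each condition has 1 library. At a minimum of 10 UMIs the share of all genes called was 5.68 to 61.3% over the comparisons, and at 1000 UMIs 0.420 to 58.6%.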

Other observations

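Small groups of cells held members outside the classes compared above. In dura mater D3, 21 cells fell into the infiltrating macrophage cluster, with Pf4 at 2174 CPM, Ccl6 at 1020.1, Ccl9 at 766 and a median depth of 21522 UMIs. In a cluster led by Mcpt8, Dntt and Car1 that was left unnamed, the 44 cells of dura mater S3 had Pf4 at 452 CPM and Ccl9 at 116. A further unnamed cluster, led by Igfbp6, Siglecf and Tnf, had 137 cells in brain D3, with Ccl9 at 114 CPM, Ccl6 at 72.7, Pf4 at 22.7 and no UMI of Ccl24. Among 42 plasmacytoid dendritic cells of dura mater S3, all 149 UMIs of Ccl24 came from 1 cell.

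The mixed cluster carried all 4 members. In brain S3, dura mater S3, brain D3 and dura mater D3 it had Ccl6 at 384, 333, 320 and 524 CPM, Ccl9 at 98.7, 152, 226 and 329, Ccl24 at 167, 244, 155 and 117, and Pf4 at 1504, 2183, 1160 and 1324.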
